A study of Mus musculus with 24 samples.

Results

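The genes described here are the mouse mitochondrial solute carriers of the SLC25 family, chosen as every gene of the expression data whose symbol begins with Slc25a. They were 47 of 24532 genes, and all 47 had a value above 0 in at least 1 of the 24 libraries. SLC25 proteins are small membrane proteins encoded in the nucleus, nearly all of which sit in the inner mitochondrial membrane and exchange nucleotides, phosphate, organic acids, amino acids, cofactors or metal ions between the cytosol and the matrix. They are made on cytosolic ribosomes and imported, so that oxidative phosphorylation, the urea cycle, gluconeogenesis, fatty acid oxidation, haem synthesis and the redox shuttles of the liver all depend on them. Many substrates are served by a pair of closely related carriers, and the members of a pair often differ in the tissue that uses them.

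RNA-seq was performed on the liver, inguinal white adipose tissue (iWAT), gastrocnemius muscle (GM) and hypothalamus of 8-week-old mice of the C57BL/6 strain kept on a chow diet. LKO mice carried Alb-Cre, a Cre recombinase driven by the albumin promoter and so active in hepatocytes, with floxed Crif1 alleles (Crif1 flox/flox), and Ctrl mice carried the same floxed alleles without Cre. Crif1, listed as Gadd45gip1, encodes a protein of the mitochondrial ribosome, which is needed to translate and insert the mitochondrially encoded subunits of the respiratory chain. There were 3 libraries per genotype and tissue, and nothing in the labels ties the tissues to individual animals. Values are FPKM, fragments scaled to transcript length and library size, so that levels of different genes are compared per length.

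Depth ranged from 4.45 to 8.09 gigabases per library, and the lowest correlation between libraries of a group was 0.9825. Crif1 stood at 14.6, 12.5 and 13.6 FPKM in the Ctrl livers and at 5.4, 2 and 2.51 FPKM in the LKO livers, and was highest among the latter in LKO 1. The defining markers of hepatocytes, adipocytes, skeletal muscle and neurons were each highest in the tissue of that label. In liver the summed level of 5 macrophage markers was 94.8 to 99.6 FPKM in Ctrl and 213 to 326 FPKM in LKO, that of 5 cycling cell markers 1.09 to 2.75 and 31.9 to 84.5 FPKM, and that of 5 cholangiocyte markers 30.7 to 31.8 and 41.6 to 88.9 FPKM. Sums of 5 markers each also did not overlap for neutrophils (0.997 to 1.51 and 7.28 to 9.45 FPKM), adipocytes (12.9 to 14.4 and 33.4 to 35.6), mammary epithelium (82.6 to 131 and 284 to 323, with 3 of the 5 listed at 0 in every LKO liver) and glia (0.817 to 1.29 and 1.94 to 3.31), and were lower in LKO for brown or beige adipocytes (305 to 451 and 12.9 to 36.6, with Ucp1 and Dio2 listed at 0 in all 6 livers) and neurons (2.69 to 3.4 and 1.37 to 1.77). The part of these other cells in the differences below was not tested, and in whole tissue a change in RNA per cell cannot be told apart from a change in the share of a cell type.

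The carriers together took a different share of the transcriptome in each tissue. Their summed level was 4371 to 4555 FPKM in the Ctrl GM libraries, 1891 to 2501 FPKM in iWAT, 1763 to 1881 FPKM in hypothalamus and 1594 to 1751 FPKM in liver. The GM values lay above all others. They rested on Slc25a4, the ADP/ATP carrier of muscle, heart and brain, which gave 75.4% to 76.7% of the GM sum. The largest member in iWAT was Slc25a1, the citrate carrier that exports the carbon for fatty acid synthesis, with 19.9% to 27% of the sum. In the Ctrl livers Slc25a5, a second ADP/ATP carrier, led with 14.6% to 16.9%, and Slc25a5, the glutathione carrier Slc25a39 and Slc25a47 together gave 36.9% to 40.3%. Between 34 and 40 of the 47 genes reached 1 FPKM in a Ctrl library. Slc25a31, the ADP/ATP carrier of the testis, the ornithine carrier Slc25a2, Slc25a41, Slc25a43 and Slc25a54 stayed under 1 FPKM in every library group of every tissue.

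The levels in Ctrl tissues were compared with limma for the 42 members that reached 1 FPKM in at least 3 of the 12 Ctrl libraries, and a member counted as different between 2 tissues with a fold of at least 2 and an adjusted p under 0.05. Of these 42, 4 reached 1 FPKM in all 3 libraries of 1 tissue and in at most 1 library elsewhere, Slc25a18 and Slc25a53 in hypothalamus and Slc25a21 and Slc25a48 in liver. They passed the filter through that tissue, so their place in the counts that follow was set by the filter, as it was for all genes of that kind. Between liver and hypothalamus 14 members were higher in liver, where 11.2% of all genes were, and 12 in hypothalamus, where 49.5% of all genes were. Between liver and iWAT the counts were 7 higher in liver (8.45% of all genes) and 10 higher in iWAT (32.5%), and between liver and GM 13 (16.4%) and 11 (19.2%). Between iWAT and GM 12 were higher in iWAT (31% of all genes) and 6 in GM (8.07%), between iWAT and hypothalamus 9 in iWAT (16.2%) and 10 in hypothalamus (28.7%), and between GM and hypothalamus 5 in GM (9.63%) and 14 in hypothalamus (45.8%).

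**Figure D1:**
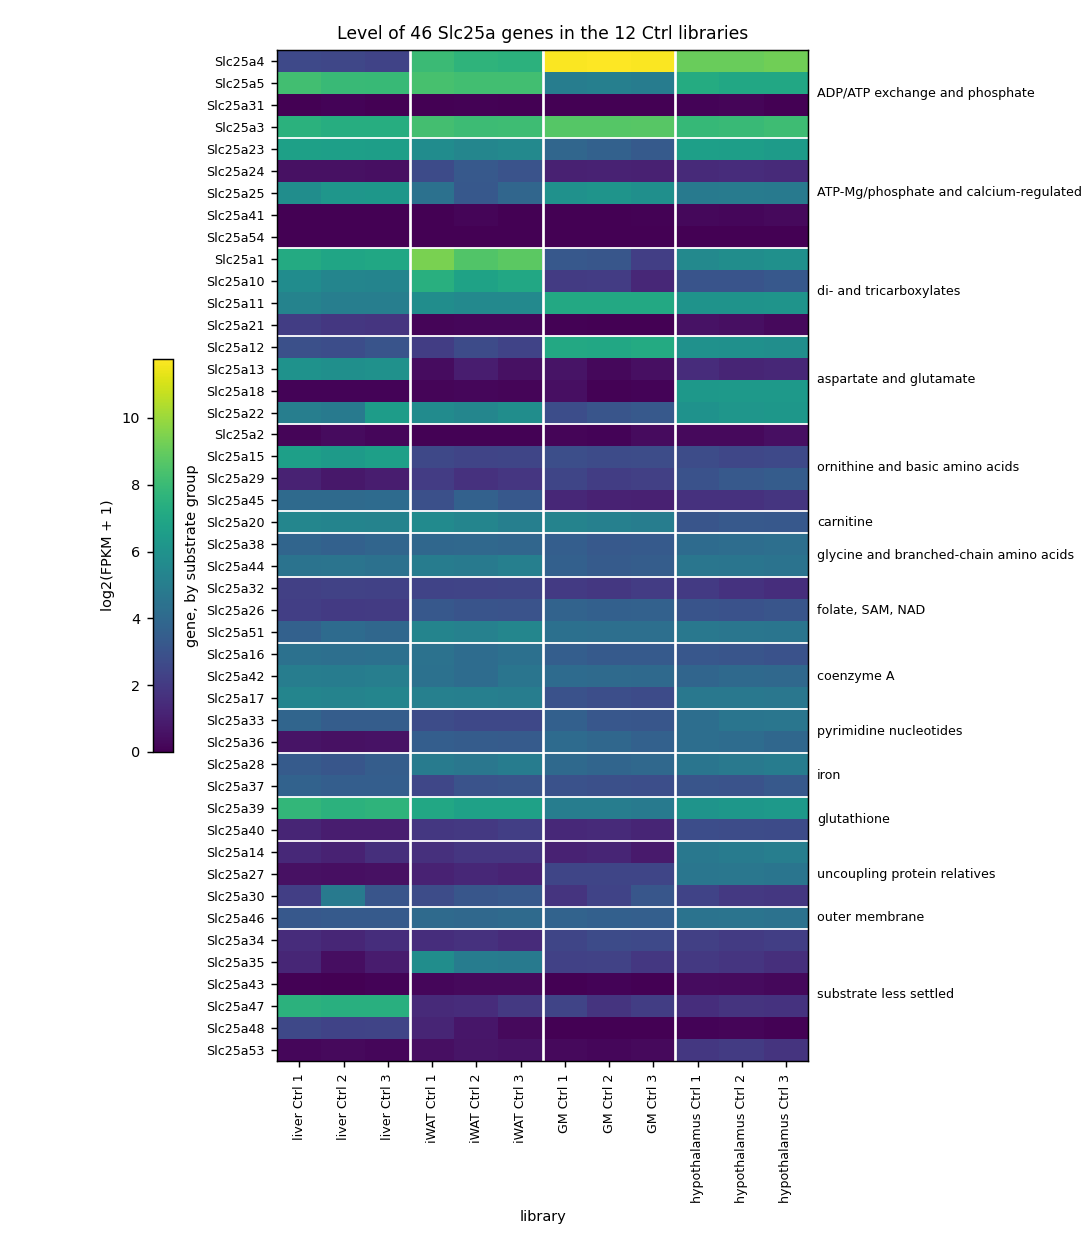
Level of 46 of the 47 Slc25a genes, ordered by the substrate they carry, in each of the 12 Ctrl libraries, as log2(FPKM + 1) on a colour scale. Slc25a4 was brightest in the 3 GM libraries, Slc25a47, Slc25a13 and Slc25a15 stood out in liver, Slc25a1 and Slc25a35 in iWAT, and Slc25a18, Slc25a14 and Slc25a27 in hypothalamus.

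The liver held the carriers of the urea cycle. Slc25a15, which exchanges ornithine for citrulline, stood at 98.5, 83.1 and 98.1 FPKM in the Ctrl livers, while its means in GM, hypothalamus and iWAT were 5.76, 5.13 and 4.52 FPKM and did not differ by 2-fold. Slc25a13, or citrin, which supplies aspartate to the urea cycle in exchange for glutamate, stood at 62.7, 57.1 and 61.7 FPKM in liver against 1.55 ± 0.261 (SD, n = 3) in hypothalamus, a difference of 4.60 ± 0.14 (SE, adjusted p = 1.4e-11) on log2(FPKM + 1). Slc25a47, a liver-enriched carrier whose substrate is less settled, stood at 191, 171 and 172 FPKM. Its next highest mean was 3.38 ± 1.01 (SD, n = 3) in GM, a difference of 5.38 ± 0.17 (SE, adjusted p = 4.7e-11) on that scale, and the liver libraries lay far above all others. Slc25a21, the oxodicarboxylate carrier, and Slc25a48 were also highest in liver at lower levels, with 2.9 ± 0.455 and 4.46 ± 0.311 FPKM (SD, n = 3) in liver, and Slc25a21 lies across the opposite strand from Pax9, whose reads this unstranded kit does not separate.

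In iWAT the citrate and dicarboxylate carriers stood above the other tissues. Slc25a1 stood at 676, 376 and 445 FPKM there, at 129.5 ± 12.8 (SD, n = 3) in liver, at 53.4 ± 7.02 in hypothalamus and at 6.62 ± 2.72 in GM, and each step of this order passed the test. Slc25a10, the dicarboxylate carrier, had the same order, with 172, 108 and 133 FPKM in iWAT and a difference from liver of 1.62 ± 0.21 (SE, adjusted p = 2.0e-05). Slc25a35, whose substrate is less settled, stood at 53.7, 29.9 and 26.9 FPKM in iWAT and at 3.58 ± 0.681 (SD, n = 3) in GM. For all 3 genes the first Ctrl library of iWAT was the highest, and for Slc25a35 19.1% of the 100-base stretches of its transcripts also occur in other genes. Slc25a24, a calcium-regulated ATP-Mg/phosphate carrier, was highest in iWAT as well, at 7.15 ± 1.69 FPKM (SD, n = 3).

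In GM 3 carriers, of ADP/ATP exchange and of the malate-aspartate shuttle, stood above every other tissue, while their relatives Slc25a5 and Slc25a13 had their lowest means there, at 31.3 and 0.374 FPKM. Slc25a4 stood at 3331, 3496 and 3319 FPKM in GM, at 559 ± 26.2 (SD, n = 3) in hypothalamus, at 218 ± 37.1 in iWAT and at 4.62 ± 0.436 in liver, and all of these neighbours differed. Slc25a12, or aralar, the aspartate/glutamate carrier of excitable tissues, stood at 139, 132 and 148 FPKM in GM, with a difference from hypothalamus of 1.23 ± 0.12 (SE, adjusted p = 1.4e-06). Slc25a11, its partner in the shuttle, which exchanges oxoglutarate for malate, stood at 137, 136 and 135 FPKM in GM and 66.4 ± 1.64 (SD, n = 3) in hypothalamus. Slc25a3, the phosphate carrier that feeds ATP synthase, had its highest mean in GM too, at 409.7 ± 3.9 FPKM, but was within 2-fold of the 281 FPKM of iWAT.

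In hypothalamus the glutamate carrier Slc25a18 stood at 77.4, 78.8 and 81.6 FPKM, while no Ctrl library of the other tissues exceeded 0.386 FPKM. The related Slc25a22 was used in more tissues, with means of 68.7 FPKM in hypothalamus, 49.3 in liver and 48.6 in iWAT, neighbours that did not differ, and 7.4 in GM. Slc25a14 and Slc25a27, relatives of the uncoupling proteins known from brain, stood at 25.2, 29 and 31.4 and at 23.6, 24.3 and 22.6 FPKM, and their highest means elsewhere were 2.45 FPKM in iWAT and 4.51 FPKM in GM. Slc25a53 reached 2.77 ± 0.4 FPKM (SD, n = 3) in hypothalamus and stayed under 1 FPKM elsewhere. It overlaps Zcchc18 on the opposite strand.

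Within several pairs the more abundant carrier differed between tissues. Slc25a4 made up 1.68% to 1.83% of the summed FPKM of Slc25a4 and Slc25a5 in the Ctrl livers, 39.4% to 44.3% in iWAT, 78.5% to 81.5% in hypothalamus and 99.1% in every GM library. Slc25a12 made up 9.09% to 10.6% of the aspartate/glutamate carriers in liver but 86% to 91.8% in iWAT, 97% to 97.8% in hypothalamus and 99.6% to 99.8% in GM. Liver stood apart from the other tissues in both pairs. Slc25a18 made up 52.7% to 55.4% of the glutamate carriers in hypothalamus and at most 6.18% in any other Ctrl library. Of the pyrimidine nucleotide carriers, Slc25a33 gave 95.1% to 96.1% of the sum in liver and 33.1% to 34.8% in iWAT, and Slc25a36 was at 0.496 FPKM in liver and 9.89 FPKM in iWAT. The mitoferrins, which import iron, were more evenly divided, with 43.1% to 49% for Slc25a28 in liver and 67.8% to 86.2% elsewhere. Of the glutathione carriers Slc25a39 gave at least 92.1% in every Ctrl library.

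**Figure D2:**
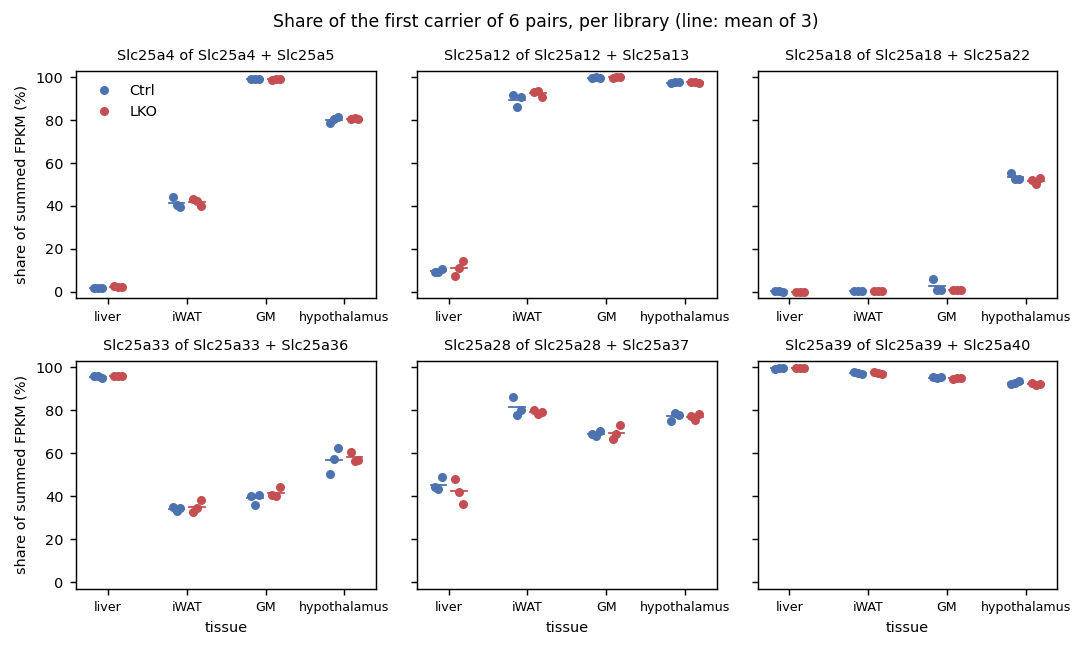
Share of the first-named gene in the summed FPKM of 6 carrier pairs, in percent, for each Ctrl (blue) and LKO (red) library of the 4 tissues, with a line at the mean of 3. Tissues were far apart for Slc25a4, Slc25a12 and Slc25a18, while Ctrl and LKO libraries of the same tissue lay close together: in liver Slc25a4 gave 1.68% to 1.83% of its pair in Ctrl and 2.32% to 2.61% in LKO.

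RefSeq gave promoter sequence on the GRCm38.p6 build for 36 of the 47 members, at 46 start sites. The 250 bases before these starts held a median of 11.5 CG pairs, with quartiles of 6 and 18, where all 32841 promoters held a median of 6, with quartiles of 2 and 16. The stretches of 4 members are printed because they span much of this range and belong to genes with contrasting levels: Slc25a34, whose LKO and Ctrl libraries did not overlap in 3 tissues, with 1 CG pair at chr4:141623835-141624084 on the minus strand, the hypothalamic Slc25a18 with 2 at chr6:120773518-120773767 on the plus strand, the hepatic Slc25a47 with 6 at chr12:108850879-108851128 on the plus strand, and Slc25a39, found in every tissue, with 35 at chr11:102407518-102407767 on the minus strand. They are written 5′ to 3′ as they read toward the gene, with each CG pair in capitals.
Slc25a34: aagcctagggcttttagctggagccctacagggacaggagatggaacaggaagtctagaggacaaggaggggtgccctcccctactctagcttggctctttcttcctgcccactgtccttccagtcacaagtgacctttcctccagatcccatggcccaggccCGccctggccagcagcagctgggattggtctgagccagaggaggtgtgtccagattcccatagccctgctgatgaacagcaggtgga
Slc25a18: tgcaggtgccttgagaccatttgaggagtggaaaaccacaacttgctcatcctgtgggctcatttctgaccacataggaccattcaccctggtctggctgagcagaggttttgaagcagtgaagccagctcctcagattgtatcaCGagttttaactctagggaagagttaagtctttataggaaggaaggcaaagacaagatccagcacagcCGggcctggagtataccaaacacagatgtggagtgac
Slc25a47: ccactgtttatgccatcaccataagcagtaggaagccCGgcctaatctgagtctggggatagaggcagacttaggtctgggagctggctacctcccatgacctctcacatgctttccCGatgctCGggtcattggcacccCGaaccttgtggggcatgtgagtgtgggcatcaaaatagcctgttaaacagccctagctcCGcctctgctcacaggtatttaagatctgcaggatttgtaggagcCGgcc
Slc25a39: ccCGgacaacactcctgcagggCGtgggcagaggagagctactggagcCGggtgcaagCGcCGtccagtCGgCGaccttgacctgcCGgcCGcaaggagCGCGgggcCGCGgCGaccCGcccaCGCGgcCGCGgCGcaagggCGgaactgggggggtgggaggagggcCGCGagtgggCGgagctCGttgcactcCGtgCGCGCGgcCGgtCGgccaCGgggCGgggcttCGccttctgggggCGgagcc

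In 300-base windows that run 50 bases past the start, 4 motifs were searched on both strands. The composite ATF4 element TGATGNAA was in 3.97% of 32851 promoters, the NRF1 motif in 0.971%, the ERR motif TCAAGGTCA in 0.423% and the DR1 element in 0.0396%, and none of the 46 member promoters held any of them.

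The first comparison asked how the carriers of the liver differ when hepatocytes lack Crif1. Of the 35 members tested in liver, 8 rose in LKO by the adjusted criterion, a fold of at least 1.5 and an adjusted p under 0.05, and none fell. Of all genes tested in liver, 23.9% rose and 3.5% fell, so the share of risen members was close to that of all genes. By the same fold with an unadjusted p under 0.05, 8 rose and 1 fell, where 25.2% and 3.75% of all genes did. The 3 LKO libraries lay above the 3 Ctrl libraries for 13 members and below them for 4, which makes 17 of 35 without overlap against 61.1% of all genes. At any fold 18 members had an unadjusted p under 0.05, where 55.9% of all genes did, and 13 an adjusted p under 0.05, where 43.8% did. The risen genes were Slc25a22, Slc25a34, Slc25a4, Slc25a47, Slc25a33, Slc25a39, Slc25a32 and Slc25a5. On mm10 the deposited coordinates place Slc25a22 at chr7:141429749-141437874, Slc25a34 at chr4:141618825-141623834, Slc25a4 at chr8:46207341-46211009 and Slc25a47 at chr12:108851129-108856815. The family's summed level was 1594, 1674 and 1751 FPKM in Ctrl and 1997, 2479 and 2522 FPKM in LKO, or 0.296% to 0.319% and 0.391% to 0.501% of all FPKM.

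The median log2 difference in liver was 0.33 over all genes tested and 0.12 over the members. After median-ratio scaling, which brings the median of all genes to 0.02, the members' median was -0.21. On that scale 3 members rose (Slc25a22, Slc25a34 and Slc25a4), where 10.3% of all genes did, and 4 fell (Slc25a23, Slc25a25, Slc25a38 and Slc25a45), where 6.99% did.

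**Figure D3:**
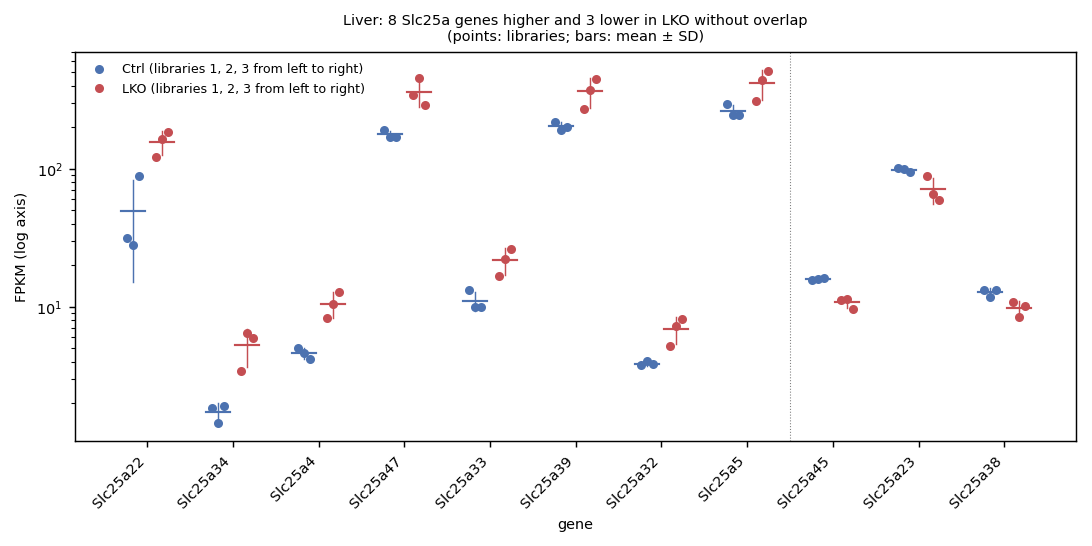
FPKM on a log axis in each liver library of the 8 members that rose in LKO and of 3 whose LKO libraries lay below Ctrl at an unadjusted p under 0.05, with mean and SD of 3 libraries. The 8 genes left of the dotted line were higher and the 3 to its right lower, and for 7 of the 8 the lowest LKO value was that of LKO 1.

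Among the carriers of adenine nucleotides and phosphate, which supply and drain ATP synthase, 2 of 3 tested rose where 23.9% of all genes did, and after median-ratio scaling Slc25a4 alone was called. Slc25a4 stood at 5.07, 4.62 and 4.19 FPKM in Ctrl and at 8.3, 10.5 and 12.9 FPKM in LKO, a log2 difference of 1.02 ± 0.16 (SE, adjusted p = 0.00479). It remained a minor carrier beside Slc25a5, which stood at 297, 247 and 245 FPKM in Ctrl and 309.7, 441 and 513 FPKM in LKO and differed by 0.65 ± 0.20 (SE, adjusted p = 0.0346). The value of Slc25a5 dropped to 0.29 (adjusted p = 0.155) after median-ratio scaling, and it lost its call when any library but LKO 1 was left out (adjusted p between 0.0614 and 0.116). It also lost its call when no filter was set (adjusted p = 0.0578) and with a replicate block (adjusted p = 0.0555). Slc25a3 was 169.5 FPKM in Ctrl and 236 FPKM in LKO without overlap, at 1.39-fold below the fold threshold. Of the 100-base stretches of Slc25a5 transcripts 12% also occur in other genes, and of those of Slc25a4 none.

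Slc25a22, which takes glutamate into the matrix, had the largest difference of the family. It stood at 31.4, 27.9 and 88.6 FPKM in Ctrl and at 123, 164 and 186 FPKM in LKO, a difference of 1.84 ± 0.41 (SE, adjusted p = 0.0144). The third Ctrl library was far above the other Ctrl libraries and still lay below every LKO library. The adjusted p was 0.0543 without Ctrl 1, 0.0548 without Ctrl 2 and 0.0585 without LKO 2. The aspartate/glutamate carriers did not pass the test: Slc25a13 was 60.5 ± 2.95 FPKM in Ctrl and 58.2 ± 3.23 FPKM (SD, n = 3) in LKO, and Slc25a12 6.47 ± 0.744 and 7.23 ± 2.22 FPKM.

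Of the tested carriers of glutathione 1 of 2 rose, of cofactors 1 of 4, of pyrimidine nucleotides 1 of 1 and of coenzyme A none of 3, where 23.9% of all genes rose. Slc25a39, which brings glutathione into mitochondria, stood at 218, 191 and 202 FPKM in Ctrl and 273, 372 and 450.1 FPKM in LKO and differed by 0.81 ± 0.19 (SE, adjusted p = 0.015). Its adjusted p was 0.0633 without Ctrl 2, 0.0584 without Ctrl 3 and 0.0649 without LKO 2. Slc25a32, the carrier of folate, stood at 3.76, 4.04 and 3.84 FPKM in Ctrl and 5.2, 7.28 and 8.18 FPKM in LKO, a difference of 0.67 ± 0.16 (SE, adjusted p = 0.017), which lost its call without any of the Ctrl libraries (adjusted p of 0.0576 to 0.0661) or LKO 2 (0.076), and fell under 1.5-fold without LKO 3 (difference 0.55). Slc25a33, which imports pyrimidine nucleotides for mitochondrial DNA and RNA, stood at 13.2, 10 and 10 FPKM in Ctrl and 16.7, 22.1 and 26.3 FPKM in LKO and differed by 0.90 ± 0.18 (SE, adjusted p = 0.0105). Without LKO 2 its adjusted p was 0.0512, and 10.2% of its 100-base stretches occur in other genes. Slc25a39, Slc25a32 and Slc25a33 were below 1.5-fold after median-ratio scaling, at 0.45, 0.37 and 0.56. The NAD carrier Slc25a51 was higher at 1.33-fold (adjusted p = 0.043), and the S-adenosylmethionine carrier Slc25a26 differed by 0.37 with overlap.

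Of the carriers whose substrate is less settled, 2 of the 3 tested rose where 23.9% of all genes did, and after median-ratio scaling Slc25a34 alone was called. Slc25a47 stood at 191, 171 and 172 FPKM in Ctrl and at 341, 453 and 291 FPKM in LKO, a difference of 1.00 ± 0.17 (SE, adjusted p = 0.00574), and was the most abundant member in LKO 1 and LKO 2. After median-ratio scaling the difference was 0.63 with an adjusted p of 0.0568. Slc25a34 stood at 1.85, 1.44 and 1.92 FPKM in Ctrl and 3.43, 6.51 and 5.95 FPKM in LKO, a difference of 1.17 ± 0.21 (SE, adjusted p = 0.00667). Slc25a48, a related carrier, stood at 4.8, 4.19 and 4.38 FPKM in Ctrl and 4.39, 2.11 and 1.64 FPKM in LKO, and LKO 1 lay within the Ctrl values. Its difference of -0.62 passed the unadjusted criterion in limma and not the adjusted one (adjusted p = 0.0778).

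The 4 members whose LKO libraries all lay below the Ctrl libraries, carriers of basic amino acids, ATP-Mg, glycine and coenzyme A, stayed under a 1.5-fold difference on the deposited scale with all libraries. Slc25a45 stood at 15.8, 15.8 and 16.2 FPKM in Ctrl and 11.2, 11.5 and 9.72 FPKM in LKO, a difference of -0.52 ± 0.11 (SE, adjusted p = 0.00995). Slc25a23, a calcium-regulated ATP-Mg/phosphate carrier, stood at 102, 99.5 and 95.4 FPKM in Ctrl and 88.5, 66.1 and 59.4 FPKM in LKO, a difference of -0.48 ± 0.15 (SE, adjusted p = 0.04). Slc25a38, which brings glycine to haem synthesis, stood at 13.4, 11.8 and 13.2 FPKM in Ctrl and 10.9, 8.49 and 10.2 FPKM in LKO, a difference of -0.35 ± 0.13 (SE, adjusted p = 0.0564). Slc25a16, a carrier for coenzyme A, was 19.3 ± 0.577 FPKM in Ctrl and 17.1 ± 1.03 FPKM in LKO (SD, n = 3, adjusted p = 0.191). The adjusted p of Slc25a23 rose above 0.05 without any library but LKO 1 (0.0953 to 0.132), while without LKO 1 its difference was -0.65 (adjusted p = 7.7e-04) and passed the criterion, that of Slc25a45 was 0.0551 without Ctrl 3, and that of Slc25a38 was 0.0124 without LKO 1. After median-ratio scaling Slc25a45, Slc25a23 and Slc25a38 fell by 0.86, 0.85 and 0.68 on the log2 scale, and Slc25a25, another ATP-Mg/phosphate carrier, fell by 0.95 (adjusted p = 0.0393). Slc25a25 overlapped between the groups, with 52.8, 72.9 and 74.2 FPKM in Ctrl and 29.3, 66.2 and 41.5 FPKM in LKO.

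The organic acid carriers that serve lipogenesis and gluconeogenesis did not pass the test. Slc25a1 was 129.5 ± 12.8 FPKM in Ctrl and 138 ± 12.6 FPKM in LKO (SD, n = 3), Slc25a10 43.6 ± 7 and 43.6 ± 0.579 FPKM, and Slc25a11 33.8 ± 3.52 and 33.6 ± 3.94 FPKM, and all overlapped. The urea cycle carrier Slc25a15 was 93.2 ± 8.78 FPKM in Ctrl and 82.8 ± 10.3 FPKM in LKO. Slc25a20, which brings acylcarnitines to fatty acid oxidation, was 39.4 ± 2.4 FPKM in Ctrl and 51.2 ± 5.14 FPKM in LKO without overlap, a difference of 0.36 ± 0.11 (SE, adjusted p = 0.0365) under the fold threshold, and 0.01 after median-ratio scaling. The mitoferrins Slc25a28 and Slc25a37 and the coenzyme A carriers Slc25a16 and Slc25a42 did not pass the test on the deposited scale, nor did Slc25a17, the peroxisomal member of the family. Slc25a30, a relative of the uncoupling proteins, varied more within Ctrl than between the groups, with 3.56, 27.6 and 7.49 FPKM in Ctrl and 7.24, 18.5 and 17.8 FPKM in LKO.

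The 12 members under the filter in liver included 4 whose LKO libraries lay above the Ctrl libraries at low levels. The share of all genes under the filter that did so was not computed, and 61.1% of all genes tested in liver did not overlap. Slc25a24 stood at 0.445, 0.424 and 0.397 FPKM in Ctrl and 0.942, 1.22 and 1.61 FPKM in LKO, and Slc25a27 at 0.423, 0.386 and 0.45 and 0.949, 1.6 and 1.89 FPKM. Fitted without a filter they differed by 0.66 ± 0.11 (SE, adjusted p = 0.0135) and 0.79 ± 0.15 (SE, adjusted p = 0.0163), on a scale that understates low genes. In that fit 13.9% of all genes rose by the adjusted criterion. Slc25a36 had means of 0.496 and 0.925 FPKM and a difference of 0.36 (adjusted p = 0.0465), and Slc25a18 stayed at 0.187 FPKM or less on average.

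The LKO libraries were not alike. LKO 1 had the lowest LKO value for 7 of the 8 risen members (87.5%), and for 79.1% of the 2622 risen genes of the liver as a whole. It also had the highest remaining Crif1, at 5.4 FPKM, the highest cycling cell markers, at 84.5 FPKM, and the lowest macrophage markers, at 213 FPKM. Without LKO 1 the count of risen members was 10 and that of fallen members 2, where 32.5% and 4.97% of all genes rose and fell. Without LKO 2 they were 3 and 1, where 10.4% and 2.5% of all genes did, so the count of members moved with that of all genes. Without Ctrl 1, Ctrl 2, Ctrl 3 or LKO 3 the risen were 5, 4, 5 and 6, where 16.7%, 14.1%, 14.1% and 13.6% of all genes rose. Slc25a4 and Slc25a34 kept their call under every alternative in which they were tested, with adjusted p of at most 0.028 and 0.0346.

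The second comparison asked whether carriers of adipose tissue, where the albumin promoter is not known to be active, differ when the liver lacks Crif1. No member of the 37 tested in iWAT passed either criterion. By the limma test 1.95% and 1.29% of all genes rose and fell at the unadjusted criterion and 0 genes passed the adjusted one. At an unadjusted p under 0.05 and any fold there were 8 members, against 15% of all genes, and 9 members did not overlap, against 20.8%. The largest differences among these 8 were in the carriers of acylcarnitines and NAD. Slc25a20 stood at 48.9, 39.9 and 32.5 FPKM in Ctrl and 56.8, 50.3 and 62.6 FPKM in LKO, a difference of 0.49 ± 0.16 (SE, adjusted p = 0.237). Slc25a51 stood at 38.6, 34.9 and 40.8 FPKM in Ctrl and 53.1, 52.9 and 54.8 FPKM in LKO, a difference of 0.48 ± 0.08 (SE, adjusted p = 0.093), the smallest adjusted p of the family in this tissue. In 1 fit of all 24 libraries, which shares the spread across tissues, their adjusted p were 0.0195 and 0.00244, and that of Slc25a15, which was lower in LKO, was 0.0403, and all 3 stayed under 1.5-fold.

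Smaller differences in the same direction were found for the peroxisomal Slc25a17, with 34.1, 32.6 and 31.1 FPKM in Ctrl and 41.8, 39.5 and 40.4 FPKM in LKO, and for Slc25a46, an outer membrane protein, with 15.7, 15 and 16 and 17.8, 17.8 and 18.6 FPKM. Slc25a32 was 4.36 FPKM in Ctrl and 5.61 FPKM in LKO, and Slc25a36 9.89 and 11.4 FPKM. Lower in LKO without overlap were Slc25a15, with 4.79, 4.27 and 4.51 FPKM in Ctrl and 3.79, 3.22 and 3.02 FPKM in LKO, and Slc25a38, with 14.4, 14.9 and 13.9 and 11, 12.1 and 12.7 FPKM. The adjusted p of these 6 genes ranged from 0.131 for Slc25a17 to 0.313 for Slc25a36. The abundant lipogenic carriers had wide spreads, so that Slc25a1 was 676, 376 and 445 FPKM in Ctrl and 613, 487 and 289 FPKM in LKO. The summed level of 5 brown or beige adipocyte markers was 164 to 507 FPKM in Ctrl and 454 to 766 FPKM in LKO, that of 5 skeletal muscle markers 47.2 to 447 and 28 to 695 FPKM, and that of 5 macrophage markers 572 to 1550 and 576 to 770 FPKM, and these overlapped. Sums that did not overlap were those of 5 adipocyte markers, at 2.09e+04 to 2.46e+04 FPKM in Ctrl and 2.57e+04 to 2.71e+04 FPKM in LKO, of 5 hepatocyte markers, at 13.8 to 24.7 and 36.2 to 54.6 FPKM, of 5 glia markers, at 57.2 to 75.4 and 82 to 116 FPKM, and of 5 neutrophil markers, at 3.69 to 5.66 and 7.97 to 19.7 FPKM. The part of all these markers in these differences was not tested.

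In GM 1 of 36 tested members, Slc25a34, passed the unadjusted criterion, where 0.579% of all genes rose and 0.322% fell by it, and none passed the adjusted one, as for all genes. Slc25a34 stood at 4.54, 5.5 and 5.1 FPKM in Ctrl and 7.31, 11.1 and 9.77 FPKM in LKO, a difference of 0.77 ± 0.14 (SE, adjusted p = 0.379) with an unadjusted p of 0.00103. Every LKO library lay above every Ctrl library, and without LKO 1 the adjusted p was 0.0491. The only marker sum of GM without overlap was that of 5 glia markers, at 42.6 to 45 FPKM in Ctrl and 46.8 to 56.8 FPKM in LKO, and its part was not tested. At an unadjusted p under 0.05 and any fold there were 5 members, against 6.83% of all genes, and 5 members did not overlap, against 11.6%. Slc25a22 stood at 5.86, 7.68 and 8.65 FPKM in Ctrl and 10.9, 10.8 and 10.3 FPKM in LKO (difference 0.49, adjusted p = 0.516), and the coenzyme A carrier Slc25a42 at 16.3, 16.1 and 15.1 and 18.1, 18 and 18.6 FPKM (difference 0.19, adjusted p = 0.62). Slc25a29, which carries basic amino acids, was lower, at 4.56, 3.47 and 3.65 FPKM in Ctrl and 3.27, 2.4 and 2.25 FPKM in LKO (difference -0.43, adjusted p = 0.62). Slc25a15 was lower without overlap as well, with means of 5.76 FPKM in Ctrl and 5.02 FPKM in LKO. The dominant carrier of the tissue, Slc25a4, was 3382 ± 99.2 FPKM in Ctrl and 3235 ± 150.0 FPKM (SD, n = 3) in LKO.

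In hypothalamus none of 40 tested members passed either criterion or reached an unadjusted p under 0.05, where 3.72% of all genes did. By the adjusted criterion 0.0217% of all genes fell, the same share as at any fold. The limma test gave no adjusted p under 0.999 among the members. For 2 members, Slc25a24 and Slc25a40, the LKO libraries lay above the Ctrl libraries, against 9.7% of all genes without overlap. Slc25a40, a glutathione carrier, was 5.61 ± 0.223 FPKM in Ctrl and 6.19 ± 0.151 FPKM (SD, n = 3) in LKO. The carriers that mark this tissue had close means: Slc25a18 was 79.3 FPKM in Ctrl and 77.4 FPKM in LKO, Slc25a14 28.6 and 27.9 FPKM, and Slc25a27 23.5 and 24.1 FPKM. Sums of 5 markers each without overlap in hypothalamus were higher in LKO for neurons (1.05e+03 to 1.13e+03 and 1.17e+03 to 1.23e+03 FPKM) and skeletal muscle (7.8 to 11.5 and 12.9 to 14). That of cholangiocytes was lower in LKO (40.8 to 56.6 and 30.2 to 36.9 FPKM), and the part of these markers was not tested.

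**Figure D4:**
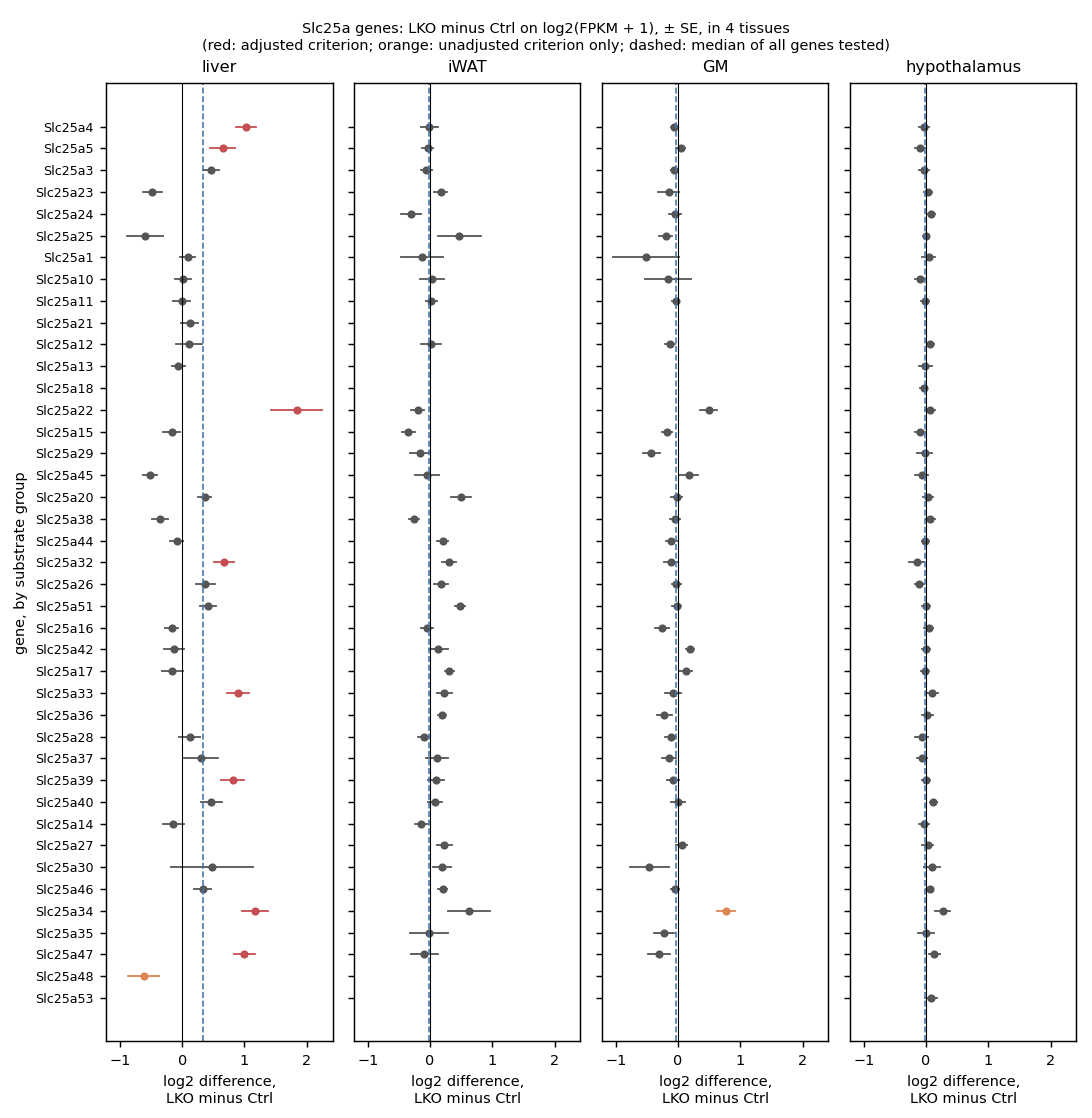
Difference between LKO and Ctrl on log2(FPKM + 1), with its SE, of the members tested in at least 1 tissue, with 1 of them not shown, in 4 panels for the tissues. Solid lines mark 0 and dashed lines the median of all genes tested, which was 0.33 in liver. The red points, 8 in liver and none elsewhere, passed the adjusted criterion, and the orange points, Slc25a48 in liver and Slc25a34 in GM, passed the unadjusted criterion alone.

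Whether the effect of the genotype differed between tissues was tested in 1 fit of all 24 libraries. An interaction was called for 13 of 42 members at an adjusted p under 0.05, where 33.5% of all genes were called. Without LKO 1 of the liver the count was 20, where 45.2% of all genes were called. The smallest adjusted p belonged to Slc25a4 (1.6e-04), whose difference in liver exceeded those in iWAT, GM and hypothalamus by 1.03, 1.09 and 1.07 on the log2 scale. For Slc25a22 (adjusted p = 0.00198) the excess of liver was 2.04, 1.35 and 1.77, and for Slc25a47 (0.00346) it was 1.09, 1.31 and 0.87. Slc25a47 lost this call after median-ratio scaling (interaction adjusted p = 0.0635). Slc25a24 (0.00113) was low in liver and had an excess of 0.97 over iWAT, where its LKO mean was below the Ctrl mean. Slc25a51 (0.0044) had another pattern. Its liver difference minus that of iWAT was -0.07 (adjusted p = 0.735), and it was 0.44 and 0.41 above those of GM and hypothalamus (adjusted p = 0.0124 and 0.0172), with LKO libraries above Ctrl in liver and iWAT and overlap in the others. After median-ratio scaling the liver difference of Slc25a51 was 0.07 (adjusted p = 0.739) and that in iWAT 0.49 (adjusted p = 0.0767). For Slc25a32 (0.00433) the excess of liver over iWAT was 0.38 (adjusted p = 0.115) and over GM and hypothalamus 0.79 and 0.82.

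Slc25a34 was the member whose LKO libraries lay above the Ctrl libraries in the most tissues, namely liver, iWAT and GM. In iWAT it stood at 1.92, 2.21 and 1.74 FPKM in Ctrl and 2.3, 2.46 and 7.15 FPKM in LKO, where LKO 3 was far above the rest, and the difference of 0.62 ± 0.34 (SE, adjusted p = 0.444) did not pass the test. In hypothalamus it stood at 3.73, 3.1 and 3.5 FPKM in Ctrl and 5.07, 4.52 and 3.53 FPKM in LKO and overlapped, with a difference of 0.27. A difference of its effect between tissues was not shown (interaction adjusted p = 0.221). Its upstream stretch, printed above, has the fewest CG pairs of the 46, and none of its 100-base stretches occurs in another gene. Slc25a20, Slc25a22, Slc25a32, Slc25a40, Slc25a46 and Slc25a51 lay above Ctrl in 2 of the tissues in which they were tested, and Slc25a15 and Slc25a38 below in 2. Slc25a24, Slc25a36 and Slc25a18 also lay above in 2 tissues when those in which they were too low to be tested are counted. How many of all genes lacked overlap in 2 or 3 tissues was not computed, so these counts have no baseline. Within a single tissue, between 9.7% (hypothalamus) and 61.1% (liver) of all genes tested did not overlap, in either direction.

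**Figure D5:**
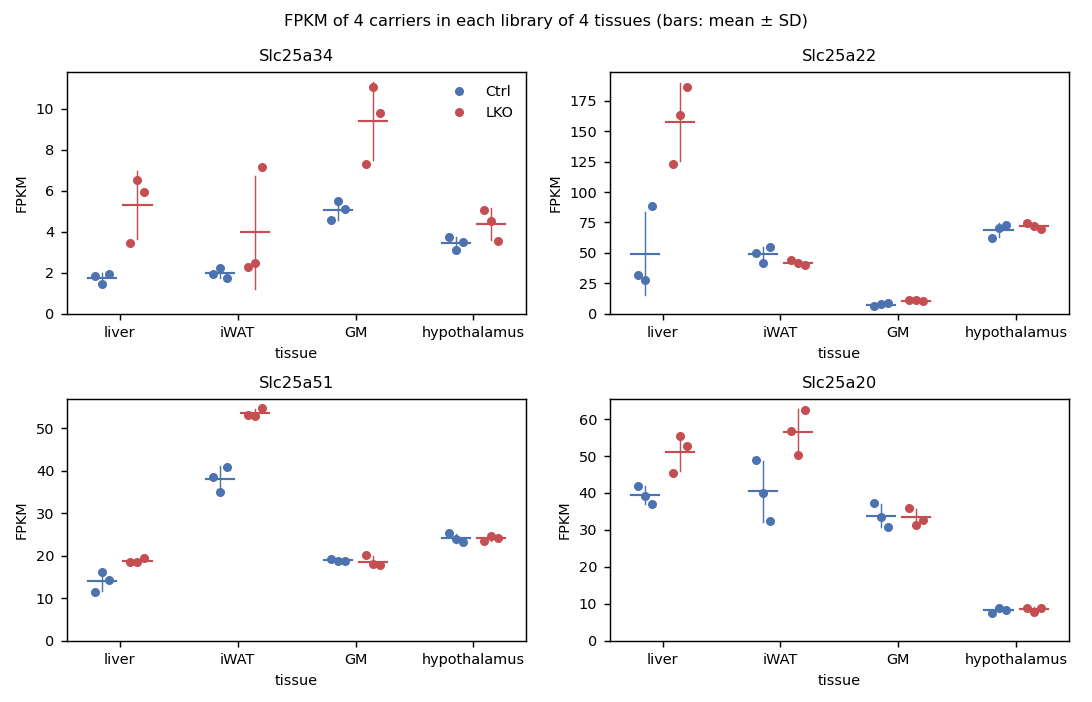
FPKM of Slc25a34, Slc25a22, Slc25a51 and Slc25a20 in each Ctrl (blue) and LKO (red) library of the 4 tissues, with mean and SD of 3 libraries. Slc25a34 was higher in every LKO library than in every Ctrl library of liver, iWAT and GM, Slc25a22 in liver and GM, and Slc25a51 and Slc25a20 in liver and iWAT.

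Genes that work with these carriers were compared in the same fits. Of the 5 family genes under other symbols (Ucp1, Ucp2, Ucp3, Mtch1 and Mtch2) 3 were tested in liver, and the uncoupling protein Ucp2 rose from 9.42 ± 0.342 to 31.5 ± 11.6 FPKM (SD, n = 3), a log2 difference of 1.58 ± 0.24 (SE, adjusted p = 0.00414), which was 1.24 after median-ratio scaling. In iWAT Ucp1 had means of 39.2 ± 39.1 and 119 ± 85.7 FPKM (SD, n = 3) in Ctrl and LKO, a difference of 2.01 ± 1.03 (SE, adjusted p = 0.418). In GM Ucp3 had means of 39.3 and 111 FPKM and Ucp2 of 7.95 and 13.4 FPKM in Ctrl and LKO (adjusted p = 0.455 and 0.654). Of 11 tested genes of the import machinery of carriers 2 rose in liver, where 23.9% of all genes did, the chaperone Timm8a1 by 0.76 and Agk, a subunit of the TIM22 complex that inserts carriers, by 0.90, and neither was called after median-ratio scaling. Of 10 tested inner membrane transporters outside the family none rose and 2 fell, where 3.5% of all genes fell, Abcb10 by 0.73 and the sideroflexin Sfxn5 by 0.71 on the log2 scale.

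Of 26 tested enzymes that make or use what the carriers move, 6 rose in liver and none fell, a share close to the 23.9% of all genes that rose. Mthfd2, a mitochondrial enzyme of folate metabolism, rose from 1.23 ± 0.0547 to 8.72 ± 4.04 FPKM (SD, n = 3), a difference of 2.03 ± 0.30 (SE, adjusted p = 0.00374). Gss, which completes glutathione, rose by 1.26 from 34.4 to 84.4 FPKM and Mdh2, the mitochondrial malate dehydrogenase, by 1.04 from 149 to 314 FPKM. Crat, Me1 and Gpt2 rose by 0.94, 0.84 and 0.71, and lost their call after median-ratio scaling at 0.60, 0.48 and 0.35. On that scale Mthfd2, Gss and Mdh2 rose, where 10.3% of all genes did, and 3 enzymes fell, where 6.99% did: the urea cycle enzymes Otc and Asl by 0.95 and 0.86 and Shmt2, which makes glycine and folate-bound carbon, by 0.59. In iWAT, GM and hypothalamus no gene of these lists passed the adjusted criterion.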

How the data were processed

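Gene levels were deposited as FPKM per library by the authors, joined for the 24 libraries, and as per-library files that also hold TPM and the mean read coverage of each gene. Per the labels, total RNA was prepared with the TruSeq RNA v2 kit and sequenced as paired ends, and the submitters' processing notes name the mm10 build, FastQC 0.11.5, Trimmomatic 0.32, HISAT2 2.0.5, Bowtie2 2.2.6, STAR 2.5.2b and StringTie 1.3.3b without a role or order. The authors' FPKM are normalised to length and library and carry no counting depth. Depth in gigabases was therefore taken from the ratio of deposited coverage to FPKM. TPM, which the authors deposited beside FPKM, was used as an alternative, and the coverage for the depth alone.

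Genes of at least 1 FPKM in at least 3 libraries of a fit were tested on log2(FPKM + 1) with limma 3.58.1 (R 4.3.3), with p-values adjusted by Benjamini-Hochberg over all genes tested. This scale understates the change of low genes. LKO was compared with Ctrl within each tissue, the effect of LKO between tissues by an interaction in 1 fit of 24 libraries, and the tissues among the 12 Ctrl libraries in 6 pairs. The fit was run on simulated data with independent errors, spreads shuffled over genes and no shift of all genes. These settings differ from the liver data, so nothing is concluded from that run. Alternatives were a pseudocount of 0.1, no filter, a mean of at least 5 FPKM, TPM, median-ratio scaling, 1 fit for all tissues, a replicate block and leaving out each library. The rule for values in every library covered up to 8 members per direction with the largest difference without overlap at an unadjusted p under 0.05. It also covered the leading member of each substrate group, the 6 smallest interaction p, the highest members of each tissue and up to 3 genes of other lists. Some of these are given as means, shares or differences alone, such as Slc25a3, Slc25a28, Slc25a32 and Slc25a36 in iWAT and the genes of other lists, and Slc25a44 is not described. Genes outside this rule, such as Slc25a48, Slc25a25, Slc25a30, Slc25a24 and Slc25a27 in liver, Slc25a34 in iWAT and hypothalamus and Crat, Me1, Gpt2, Otc, Asl and Shmt2, were named after their values were seen. Of the 47 members 1 is counted but not reported here by name. The members and lists were chosen with earlier results of these data known. Nothing in the labels says that the libraries of a group came from separate mice, so p-values measure the spread between libraries, which may be technical.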

Additional observations from a re-analysis of the deposited data

Results flagged for a closer look

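The effect of LKO differed between tissues for 13 members by the interaction test in limma, each given here with its adjusted p. The differences in liver were the highest of the 4 tissues for Slc25a4 (1.6e-04), Slc25a22 (0.00198), Slc25a47 (0.00346), Slc25a32 (0.00433), Slc25a24 (0.00113) and Slc25a27 (0.00679). Slc25a24 and Slc25a27 stayed near 1 FPKM in liver. Liver also had the highest difference for the glutathione carrier Slc25a39 (0.00651), the phosphate carrier Slc25a3 (0.00679) and the ADP/ATP carrier Slc25a5 (0.0106). So it did for the pyrimidine nucleotide carriers Slc25a33 (0.00829) and Slc25a36 (0.0342), though the excess of Slc25a36 over iWAT was 0.17 (adjusted p = 0.437). For Slc25a51 (0.0044) the LKO libraries lay above Ctrl in liver and iWAT, although its liver difference was 0.07 after median-ratio scaling, and for Slc25a38 (0.034) they lay below in both. On the deposited scale neither gene passed a criterion in liver or iWAT. Of all genes 33.5% were called, and the median of all genes was 0.33 higher in LKO liver, so that the test also carries that shift. The interaction of Slc25a47 had an adjusted p of 0.0635 after median-ratio scaling.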

How the results depend on the processing

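No called result changed direction under any alternative run. The members' median liver difference turned from 0.12 to -0.21 after median-ratio scaling, as did 6 liver members that passed no criterion, Slc25a1 (0.09 to -0.27), Slc25a10 (0.01 to -0.34), Slc25a12 (0.11 to -0.22), Slc25a21 (0.12 to -0.16), Slc25a28 (0.12 to -0.21) and Slc25a37 (0.30 to -0.04). In liver the 8 risen members were 8 with a pseudocount of 0.1, where 28.9% of all genes rose, and 8 with all 24 libraries in 1 fit (25.3%). They were 7 with a mean of at least 5 FPKM (21.3%), 12 of 40 tested in TPM (36.9%) and 9 without a filter (13.9%), where Slc25a24 and Slc25a27 entered and Slc25a5 was lost. Median-ratio scaling gave 3 risen and 4 fallen members by the adjusted criterion (10.3% and 6.99% of all genes) and 4 and 5 by the unadjusted one. The share of all genes by the unadjusted criterion was not computed for the alternatives. The 1 member lower by the unadjusted criterion was 0 in TPM, without a filter and with a mean of at least 5 FPKM. With all 24 libraries in 1 fit, 1 liver member fell by the adjusted criterion, where 3.61% of all genes did, and 2 by the unadjusted one. In iWAT 1 member rose by the unadjusted criterion in that fit. Leaving out single libraries gave 3 to 10 risen members by the adjusted criterion in liver, where 10.4% to 32.5% of all genes rose, and 6 to 10 by the unadjusted one. It gave 0 to 2 fallen members by either, where 2.29% to 4.97% of all genes fell by the adjusted one. In GM it gave 0 to 1 risen by the adjusted criterion, and 0.0846% of all genes rose in the fit without LKO 1 that called 1 member. By the unadjusted criterion it gave 1 to 2 risen and 0 to 1 fallen in GM, and 0 to 1 risen in iWAT. The interaction count was 11 to 20, lowest without liver Ctrl 1, where 27.6% of all genes were called, and highest without liver LKO 1 (45.2%). The counts between Ctrl tissues stayed within 1.5 times the reported ones.

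Samples of the same replicate number did not deviate together in every pair, with correlations from -0.13 in hypothalamus to 0.35 in GM, so the numbers were not read as pairs. With a replicate block 7 members rose and 1 fell by the adjusted criterion in liver, where 24.1% and 3.61% of all genes did. The call lost was that of Slc25a5 (adjusted p = 0.0555), and 2 members fell by the unadjusted criterion.

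With 3 libraries per group the smallest p of an exact permutation test for 1 gene is 0.1. FPKM hold no counts, so no counting interval was computed, and levels under 1 FPKM are the least certain. The shift of all genes in liver and the markers of other cells move with the genotype, and their part was not tested.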
